A study of Mus musculus with 2 samples.

Results

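Collagen genes encode the chains of the collagen triple helix, the main structural protein family of the extracellular matrix. Every gene of the table whose symbol reads Col, a type number, the letter a and a chain number was taken, without use of any measured value, which gave 44 genes of the 35275 listed. RNAseq had been run on AML12, a non-transformed hepatocyte line set up from the liver of a CD-1 mouse (labelled male, 3 months) that carried a transgene for human transforming growth factor alpha. Control cells were left untreated and are titled Young. Senescent cells, titled Old, were exposed daily for 1 h to hydrogen peroxide (H2O2) over 6 days, first at 1 mM and from then on at 0.75 mM, and were left to recover for 23 h each time. Both were kept in the same DMEM:F12 medium with serum, insulin, transferrin, selenium and dexamethasone, a glucocorticoid, and the peroxide was given in medium without serum. RNA of 3 samples was pooled into 1 library per condition, so no test between conditions was possible and the spread between cultures is not known. All cells were of 1 line in culture. Hydrogen peroxide, the handling that went with it and the library cannot be told apart, nor can fewer cells with a transcript be told from less transcript per cell.

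Collagen chains carry a repeat of glycine and 2 further residues and wind into trimers in the endoplasmic reticulum. Fibrillar collagens build the cross-banded fibrils of scar and connective tissue and, in liver, come mainly from activated stellate cells and portal fibroblasts. Collagen IV forms the sheet-like network of basement membranes, collagen VI forms beaded microfilaments, FACIT collagens (fibril-associated collagens with interrupted triple helices) sit on the surface of fibrils, multiplexins carry glycosaminoglycan chains and lie in basement membrane zones, and transmembrane collagens are anchored in the plasma membrane. Hepatocytes lie against a thin perisinusoidal matrix, and collagen XVIII, the source of endostatin, is a collagen that they are known to make.

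The control library held 28021941 reads, on 17403 genes, and the senescent one 25738075, on 17592 genes. Wherever 2 values follow each other without a name, the first is the control value and the second the senescent value. Ratios below are log2 of senescent over control after TMM scaling, a method that corrects for differences in library composition, and each carries a 95% counting interval in brackets. Reads are PCR copies without molecular tags, so intervals, and the floor of 3 reads taken as the limit of detection, describe counting error alone. A gene counts as tested, in the sense of having its ratio read, when both libraries together gave 10 or more reads, and it is called higher or lower where its ratio lay past 1.5 and its interval left out 0. Of all genes, 14383 (40.8%) could be tested, with 2.71% of them higher, 5.6% lower and 8.31% in either direction. Levels are compared between genes only as RPKM, the TMM-scaled CPM divided by the length of the merged exons in kilobases.

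Of the 44 collagen genes, 20 (45.5%) had at least 10 reads, 11 had 1 to 9 reads and 13 had no read in either library. Among the 20, 4 were higher in senescent cells (Col4a6, Col6a3, Col11a2 and Col20a1) and 4 were lower (Col1a1, Col6a2, Col12a1 and Col16a1). That is 20% in each direction, beside 2.71% and 5.6% of all genes tested, and with 4 genes on either side it sets no common direction. The median ratio of the 20 was 0.19 against -0.02 for all genes tested, and 11 lay above 0 and 9 below. Their ratios ran from -3.29 to 4.46, while the 10th and 90th percentiles of all genes tested were -1.07 and 0.74. For 5 of the 8 genes past the threshold, Col6a3 and Col1a1 among them, the whole interval lay past it as well. The share of all genes for which this holds was not computed. The filter acts on the sum of both libraries, so Col6a3 (1 and 38 reads) and Col1a1 (21 and 1) entered only through the library where each was high and had to differ. The shares are therefore a description and not support for a difference from other genes. With at least 100 reads, 13 collagen genes were left, 3 higher and 2 lower, beside 1.25% higher and 3.50% lower of all genes at that filter.

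**Figure D1:**
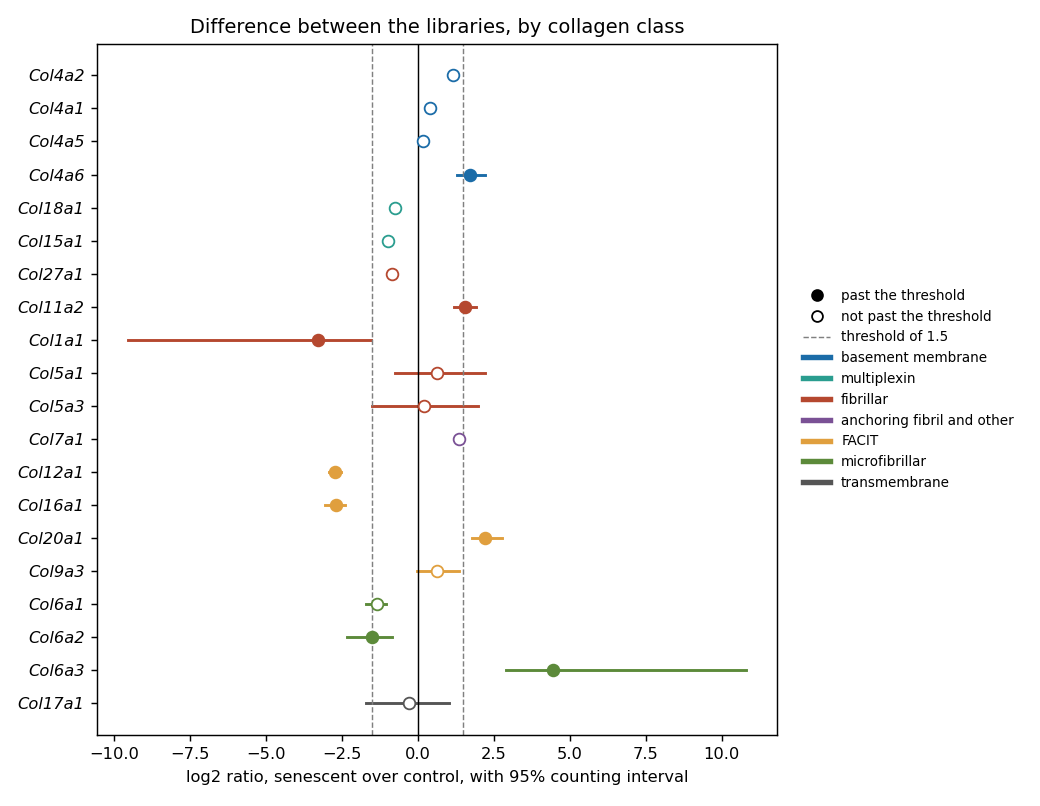
log2 ratio of senescent over control (horizontal axis) for the 20 collagen genes with at least 10 reads, coloured by class, with lines for the 95% counting interval and dashed lines at the threshold of 1.5. Filled points, past the threshold, lie on both sides of 0, with Col6a3 at 4.46 and Col1a1 at -3.29 carrying the widest intervals, while the genes with the most reads (Col18a1, Col4a1, Col4a2) are open points with intervals hidden behind them.

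The 13 genes without reads came from 7 of the classes. Fibrillar genes gave 4 of them: Col1a2, the partner chain of Col1a1 in collagen I, Col3a1, which forms collagen III of soft tissue, Col5a2 and Col11a1, chains of the fibril-nucleating collagens V and XI. The others were the basement membrane genes Col4a3 and Col4a4, known from the kidney filter, the microfibrillar Col6a6, the transmembrane Col13a1, the FACIT genes Col9a2 and Col22a1, the cartilage gene Col10a1, and Col26a1 and Col28a1. At 3 reads the level that such a gene could have had was between 0.0081 and 0.0333 RPKM for the control, and between 0.00949 and 0.0391 RPKM for senescent cells, depending on its length. Low levels under this limit could not be detected at this depth.

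The 11 genes with 1 to 9 reads were Col2a1, Col6a4, Col6a5, Col8a1, Col8a2, Col9a1, Col14a1, Col19a1, Col23a1, Col24a1 and Col25a1. For 8 of them neither library passed 3 reads, and no ratio is given. Col2a1, the cartilage fibril chain, had 7 control reads and 0 senescent reads. Set against the floor of 3 reads, the control value was 1.99-fold higher, a figure without counting error for a gene that was not tested. Col6a5 had 1 and 5 reads, and Col8a1, a short-chain collagen of vessel walls, had 2 and 4.

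Collagen transcripts as a whole took nearly the same small part of both libraries. The 44 genes summed to 64126 and 55378 reads, or 0.229% (0.227 to 0.231, exact binomial) and 0.215% (0.213 to 0.217). After TMM scaling the ratio of these sums was 0.02 [0.00, 0.03], and it was -0.09 with scaling to the total count and -0.02 with upper quartiles. Summed levels were 292 and 307 RPKM. Col18a1, Col4a1, Col4a2 and Col27a1 together held 91.0% and 92.5% of the collagen reads.

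Within this nearly constant sum the make-up differed. Basement membrane collagens made up 38.3% (37.97 to 38.72) of collagen reads in control cells and 62.5% (62.1 to 62.9) in senescent cells. Multiplexins made up 44.5% and 26.3%, fibrillar collagens 11.0% and 6.34%, and FACIT collagens 4.08% and 1.00%. These shares lie within one library each and do not depend on scaling, but a share falls when another gene's reads grow. The intervals of the shares overlapped between the libraries for the transmembrane and short-chain classes and for no other class. They describe counting error in 1 library each, and how often such intervals lie apart over all genes was not computed. Microfibrillar genes held 0.624% and 0.312%, and transmembrane genes, with 15 and 11 reads in all, 0.0234% and 0.0199%.

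**Figure D2:**
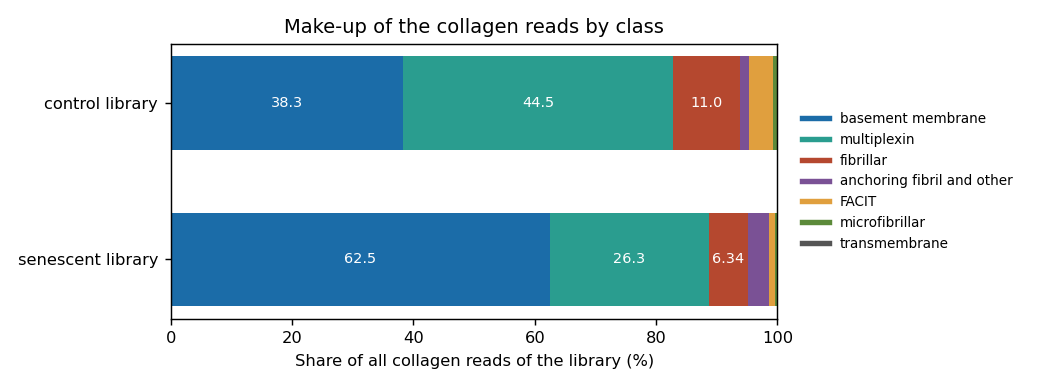
Share of each collagen class in all collagen reads of a library (horizontal axis, percent), with the control library as the upper bar and the senescent library as the lower bar. The basement membrane share is 38.3% in the upper and 62.5% in the lower bar, and the multiplexin share is 44.5% and 26.3%, while microfibrillar and transmembrane slivers are barely visible.

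Collagen IV carried the largest share of collagen reads in the senescent library. Col4a1 and Col4a2 encode the chains of the common basement membrane heterotrimer, which holds 2 α1 chains and 1 α2 chain. Col4a1 (ENSMUSG00000031502, GRCm38 chr8:11198423-11312826, minus strand) had 14915 and 16657 reads, or 68.7 and 89.98 RPKM. Its ratio was 0.39 [0.36, 0.42], so counting error alone does not span 0, but it lay far inside the threshold. Col4a2 (ENSMUSG00000031503, chr8:11312805-11449287, plus strand) had 8984 and 17162 reads, or 46.7 and 105 RPKM, with a ratio of 1.16 [1.13, 1.20]. At this ratio, 2.24-fold, Col4a2 also stayed short of the threshold, and it would pass a threshold of 1. By level Col4a1 stood at percentile 95.2 of all genes tested among control levels and 96.3 among senescent ones, and Col4a2 at 92.3 and 96.9.

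The chains of this pair thus changed places in level. Per kilobase, control cells held 0.679 (0.662 to 0.697) Col4a2 reads for each Col4a1 read and senescent cells 1.16 (1.14 to 1.19). The ratio between these was 1.71 (1.65 to 1.77), a value that rests on neither scaling nor gene length. Whether it exceeds the spread between cultures could not be tested with 1 library each.

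The minor collagen IV chains α5 and α6 occur in the basement membranes of particular organs. Col4a5 (chrX:141475385-141689234, plus strand) had 633 and 613 reads, or 3.24 and 3.68 RPKM, with a ratio of 0.18 [0.02, 0.35]. Col4a6 (chrX:141165403-141474076, minus strand) had 57 and 163 reads, or 0.246 and 0.824 RPKM, and was higher with a ratio of 1.73 [1.30, 2.21], or 3.31-fold. Col4a6 reads per Col4a5 read, per kilobase, went from 0.0759 to 0.224, a 2.95-fold difference (2.12 to 4.15). In the basement membrane class 4 of 6 genes were tested, 1 was higher and 0 lower, the median ratio was 0.78 and all 4 lay above 0. Summed over the class, 24589 and 34595 reads gave a ratio of 0.72 [0.70, 0.75].

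**Figure D3:**
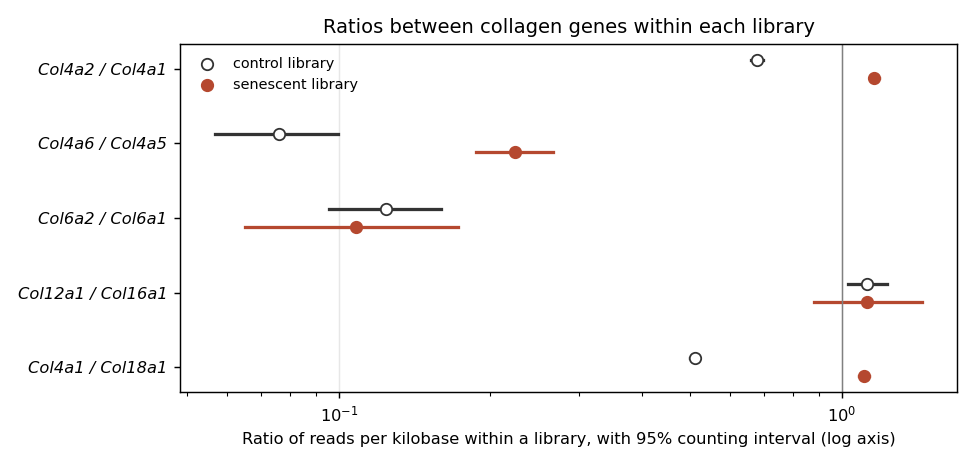
Reads per kilobase of the first gene over the second within each library (log axis), with lines for the 95% counting interval, for 5 pairs of collagen genes. Col4a2 over Col4a1 lies at 0.679 (control) and 1.16 (senescent), on opposite sides of 1, whereas Col12a1 over Col16a1 lies at 1.13 and 1.12.

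All 6 collagen IV genes lie in head-to-head pairs that start close together on opposite strands. The annotated starts of Col4a1 and Col4a2 overlap by 22 bases on opposite strands, Col4a3 and Col4a4 are 71 bases apart and Col4a5 and Col4a6 1308 bases apart. The pairs also sorted by detection: both Col4a1 and Col4a2 and both Col4a5 and Col4a6 passed 10 reads, and neither Col4a3 nor Col4a4 had any. The same held for all 8 pairs of neighbouring collagen genes less than 100000 bases apart, whatever their strands. In 3 of these both genes had 10 or more reads and in 5 both had fewer. The promoters of the detected pairs are shown because the genes of a pair start side by side yet differed in ratio. The windows come from RefSeq on GRCm38.p6, run from 250 bases before to 50 after the start, and are written 5′ to 3′ on the strand of the gene. Capitals mark 4 sets of letters, searched on either strand. The GC box was searched as GGGCGG. The CCAAT box was searched by the letters of its name. The TATA box was searched as TATAAA. The AP-1 site was searched as TGACTCA. The Col4a1 window is chr8:11312777-11313076 (minus strand), that of Col4a2 chr8:11312555-11312854 (plus strand), that of Col4a5 chrX:141475169-141475468 (plus strand) and that of Col4a6 chrX:141474027-141474326 (minus strand).
Col4a1: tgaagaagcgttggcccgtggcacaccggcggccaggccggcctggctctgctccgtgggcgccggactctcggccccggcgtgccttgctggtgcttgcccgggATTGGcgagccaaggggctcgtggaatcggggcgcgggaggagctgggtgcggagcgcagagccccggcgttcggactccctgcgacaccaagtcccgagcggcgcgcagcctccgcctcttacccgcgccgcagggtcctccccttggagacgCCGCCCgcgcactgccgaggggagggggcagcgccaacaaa
Col4a2: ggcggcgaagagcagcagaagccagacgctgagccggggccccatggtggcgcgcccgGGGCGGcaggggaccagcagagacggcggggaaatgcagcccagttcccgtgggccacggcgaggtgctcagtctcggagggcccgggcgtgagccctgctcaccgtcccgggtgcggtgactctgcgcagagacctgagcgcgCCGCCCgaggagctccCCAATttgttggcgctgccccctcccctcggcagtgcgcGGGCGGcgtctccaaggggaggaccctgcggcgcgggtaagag
Col4a5: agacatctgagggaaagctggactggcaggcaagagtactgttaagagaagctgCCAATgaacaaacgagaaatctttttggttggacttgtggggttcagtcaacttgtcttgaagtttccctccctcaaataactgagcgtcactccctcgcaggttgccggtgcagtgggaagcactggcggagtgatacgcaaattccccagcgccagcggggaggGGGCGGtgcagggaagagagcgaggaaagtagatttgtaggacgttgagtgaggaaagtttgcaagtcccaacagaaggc
Col4a6: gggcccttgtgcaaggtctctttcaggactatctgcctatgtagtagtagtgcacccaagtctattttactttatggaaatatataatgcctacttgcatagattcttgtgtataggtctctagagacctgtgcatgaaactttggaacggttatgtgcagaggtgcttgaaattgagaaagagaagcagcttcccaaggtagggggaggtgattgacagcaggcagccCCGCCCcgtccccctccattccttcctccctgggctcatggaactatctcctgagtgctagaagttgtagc

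The RefSeq starts of Col4a1 and Col4a2 lie 21 bases apart and their windows share 78 bases, so that the GC box 10 bases after the Col4a1 start is also the one 8 bases after the Col4a2 start. Col4a2 holds 3 GC boxes and Col4a1 holds 1, and each holds 1 CCAAT box on its own side. The RefSeq starts of Col4a5 and Col4a6 lie 1343 bases apart and their windows share no base. Both hold 1 GC box, 30 bases before the start in Col4a5 and 21 bases before it in Col4a6, and Col4a5 also holds a CCAAT box. RefSeq windows were at hand for 35 of the 44 genes, 38 windows in all, and not for Col1a1, Col2a1, Col4a3, Col5a2, Col9a3, Col12a1, Col14a1, Col22a1 and Col26a1. A GC box stood in 23 of the 38 windows (60.5%) and in 35.7% of all 32851 windows of this length, a CCAAT box in 34.2% and 37.4%, a TATA box in 13.2% and 13.6% and an AP-1 site in 2.63% and 5.20%. Median GC content was 59.8% for collagen windows and 52.7% for all, and 59% for windows of tested genes against 60% for those of genes under 10 reads. A letter match describes the sequence and is not evidence of a bound factor.

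Multiplexins were the largest class in the control. Col18a1 (ENSMUSG00000001435, chr10:77052178-77166548, minus strand), the endostatin precursor, was the most abundant collagen transcript there, with 27517 reads or 135 RPKM. In senescent cells it had 14124 reads or 81.1 RPKM, a ratio of -0.73 [-0.76, -0.70]. There it ranked below both Col4a1 and Col4a2: per kilobase, Col4a1 went from 0.510 to 1.11 and Col4a2 from 0.346 to 1.29 reads per Col18a1 read. Col15a1, which encodes the other multiplexin and the precursor of restin, had 1021 and 438 reads, or 5.53 and 2.78 RPKM, with a ratio of -0.99 [-1.16, -0.83]. Neither gene passed the threshold. Their own ratio, Col18a1 over Col15a1 per kilobase, was 24.4 and 29.2.

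**Figure D4:**
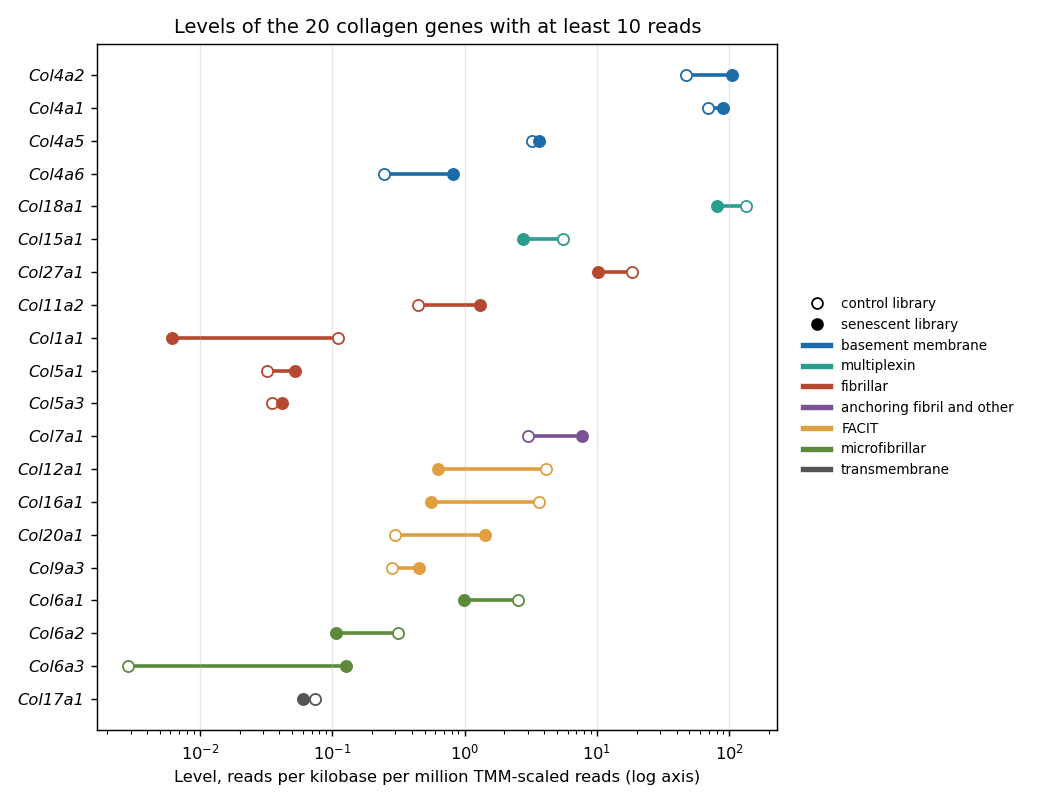
Level of the 20 tested collagen genes in RPKM, TMM-scaled (log axis), coloured by class, with open points for control and filled points for senescent cells. Col18a1, Col4a1 and Col4a2 lie above 40 RPKM in both libraries, whereas Col1a1 and Col6a3 lie at 0.00614 and 0.00287 RPKM in the library where each had 1 read.

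Fibrillar collagens other than Col27a1 had few or no reads. Of 11 genes, 4 had no reads, 5 could be tested, 1 was higher and 1 lower, and the median ratio was 0.20. Col27a1, a long fibrillar chain first known from cartilage, held 10.8% and 5.90% of all collagen reads, and so nearly all reads of its class. It had 6930 and 3267 reads, or 18.3 and 10.1 RPKM, with a ratio of -0.86 [-0.92, -0.80], short of the threshold. The summed ratio of the class, -0.78 [-0.84, -0.72] from 7063 and 3510 reads, is close to a Col27a1 ratio for that reason, and it has the opposite sign to the class median. With at least 1 read that median was -0.86, and the signs no longer differed.

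Col1a1 (ENSMUSG00000001506, chr11:94936224-94953042, plus strand), the major chain of collagen I, had 21 control reads and 1 senescent read, or 0.110 and 0.00614 RPKM. Its ratio was -3.29 [-9.53, -1.53], and with 1 senescent read it was -4.01 at the smallest prior count tried and -2.01 at the largest. Its partner Col1a2 had no reads, nor had Col3a1, so transcripts for a complete collagen I heterotrimer were not detected in either library. Col11a2 (chr17:34039437-34066685, plus strand), a collagen XI chain of cartilage and inner ear, had 89 and 224 reads, or 0.445 and 1.31 RPKM. It was higher at 1.55 [1.20, 1.93], or 2.93-fold, just past the threshold, and at 1.44 with scaling to the total count it was not. Col5a1, the common collagen V chain, had 8 and 11 reads and a ratio of 0.62 [-0.76, 2.21], and Col5a3 had 7 in each library and a ratio of 0.20 [-1.51, 1.97].

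Cells that are known to make fibrillar collagen left little signal. Of 11 stellate cell or fibroblast markers, 4 (Thy1, Dpt, Lum and Acta2) had no reads, and 3 passed the floor in each library, of which Tagln and Postn did so in both. Of the Tagln exon length, 62.4% overlaps Gm48529 on the opposite strand, whose reads cannot be told apart without knowing the use of strand. Summed, the 11 genes gave 66 and 34 reads, 2.27 and 1.37 CPM on the TMM scale. The most read over both libraries was Postn, periostin, with 47 and 7 reads and a ratio of -2.37 [-3.91, -1.36]. Tagln had 13 and 10 reads and Reln 0 and 12, so Reln was tested only through its senescent reads and had to differ. A link of these markers to the collagen results was not tested. The 8 endothelial markers gave 6 and 14 reads and the 8 macrophage markers 76 and 156, with Ptprc the most read over both libraries, at 27 and 76. The most read endothelial marker, Pecam1, had 4 and 4 reads. The floor was passed by 10 of 11 hepatocyte markers among control reads and by all 11 among senescent reads. Krt8 led them with 119403 and 144783, and Apoa2 had 0 and 5. For cholangiocytes, 5 of 6 markers passed the floor in each library, with Krt19 the most read over both libraries, at 22885 and 19177. Epcam, the exception, had 0 and 1 reads. Past the threshold were Cps1 (higher), Alb and Apoa1 (lower) among 10 hepatocyte markers tested, Postn (lower) and Reln (higher) among 3 of stellate cells, Ptprc and Csf1r (higher) among 3 of macrophages, Cftr (higher) among 5 of cholangiocytes and none of endothelium, where no marker could be tested. Of the Csf1r exon length, 15.1% overlaps Hmgxb3 on the opposite strand, with the same limit as for Tagln.

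Microfibrillar collagens held genes past the threshold on both sides. Collagen VI needs α1, α2 and a longer chain such as α3 in each monomer. Col6a1 (chr10:76708792-76726168, minus strand) had 322 and 107 reads, or 2.53 and 0.985 RPKM, with a ratio of -1.35 [-1.69, -1.04]. Col6a2, which lies 85161 bases away on the same strand, had 76 and 22 reads, or 0.314 and 0.107 RPKM, and was lower at -1.52 [-2.31, -0.86]. The α1 and α2 genes had like ratios: Col6a2 reads per Col6a1 read, per kilobase, were 0.124 and 0.108, with a ratio of 0.871 (0.491 to 1.499) between them, an interval that holds 1. That Col6a2 passed the threshold and Col6a1 did not does not show a difference between them, and with a prior count of 5 Col6a2 lost its call at -1.38.

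Col6a3 (ENSMUSG00000048126, chr1:90765923-90843971, minus strand), the α3 chain that gives endotrophin, went the other way, from 1 control read to 38 senescent reads. Its level was 0.00287 and 0.128 RPKM and its ratio 4.46 [2.91, 10.82], the highest of all collagen genes tested. With 1 control read this value hangs on the prior count and was 5.30 at the smallest one tried and 2.97 at the largest. Col6a3 reads per Col6a1 read differed 113-fold between the libraries (18.7 to 4648), without a prior count. That value too rests on 1 control read, for a gene that was tested only through its senescent reads, and is a description alone. The remaining genes, Col6a4, Col6a5 and Col6a6, encode α3-like chains and had 0 and 1, 1 and 5, and no reads. Over the class, 3 of 6 genes were tested, with 1 higher, 1 lower and a median ratio of -1.35, which turned to 1.06 when Col6a4 and Col6a5 entered with at least 1 read. The class sum was 400 and 173 reads, a ratio of -0.98 [-1.25, -0.72].

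The windows of Col6a1 (chr10:76725995-76726294, minus strand) and Col6a3 (chr1:90843922-90844221, minus strand) are shown as the microfibrillar genes that went apart, in the same notation.
Col6a1: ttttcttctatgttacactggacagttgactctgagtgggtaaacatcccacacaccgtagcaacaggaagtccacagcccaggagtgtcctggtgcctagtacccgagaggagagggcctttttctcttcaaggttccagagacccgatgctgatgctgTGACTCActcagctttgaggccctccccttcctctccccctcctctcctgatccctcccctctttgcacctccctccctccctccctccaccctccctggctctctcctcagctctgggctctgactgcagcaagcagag
Col6a3: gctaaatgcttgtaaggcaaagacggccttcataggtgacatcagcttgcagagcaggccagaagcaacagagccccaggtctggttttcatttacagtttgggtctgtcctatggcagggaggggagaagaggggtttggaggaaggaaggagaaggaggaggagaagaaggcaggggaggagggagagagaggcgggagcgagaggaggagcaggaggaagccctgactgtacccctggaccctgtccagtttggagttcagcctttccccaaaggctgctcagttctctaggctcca
Col6a1 held the AP-1 letters, 90 bases before its start, as the 1 collagen window of 38 with them, and the Col6a3 window held none of the 4 sets of letters.

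The lowest summed ratio of any class was that of the FACIT collagens. Of 9 genes, 4 could be tested, 2 were lower, 1 was higher and the median ratio was -1.03, and the class sum went from 2615 to 555 reads, a ratio of -2.00 [-2.14, -1.87]. Col12a1 (ENSMUSG00000032332, chr9:79598991-79718831, minus strand), which bridges fibrils in tendon and other loaded tissue, had 1818 and 236 reads, or 4.11 and 0.625 RPKM. It fell by 2.71 on the log2 scale [-2.92, -2.52], or 6.55-fold. Col16a1 (ENSMUSG00000040690, chr4:130047840-130099283, plus strand), found at fibrils and near basement membranes, had 716 and 93 reads, or 3.65 and 0.556 RPKM. It was lower by nearly the same factor, with -2.70 [-3.04, -2.40] or 6.51-fold. Their reads per kilobase stood at 1.13 (1.03 to 1.23) and 1.12 (0.881 to 1.45) Col12a1 reads for each Col16a1 read. These values restate that the 2 genes had like ratios, and a link between the genes was not tested.

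Col20a1 (chr2:180986535-181018363, plus strand), a FACIT gene of which little is known in liver, was the exception. It had 45 and 183 reads, or 0.301 and 1.43 RPKM, and was higher at 2.23 [1.78, 2.76], or 4.68-fold. An annotated transcript on the same strand covers 1.54% of its exon length. Col9a3, a cartilage chain, had 32 and 43 reads and a ratio of 0.64 [-0.04, 1.36], and 6.07% of its exon length overlaps Tcfl5 on the opposite strand, whose reads cannot be told apart without knowing the use of strand. Col9a2, its partner chain, had no reads and Col9a1 had 2 and 0.

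Col7a1, which forms the anchoring fibrils that fasten basement membranes to the matrix below, had 902 and 1968 reads. Its levels were 3.02 and 7.71 RPKM and its ratio 1.35 [1.24, 1.47], short of the threshold and above that of Col4a2. Among transmembrane collagens, Col17a1, the hemidesmosomal collagen of epithelia, was the 1 gene of 4 that could be tested, with 13 and 9 reads and a ratio of -0.28 [-1.71, 1.04]. Col23a1 and Col25a1 had 1 read in each library and Col13a1 had none. The short-chain network genes Col8a1, Col8a2 and Col10a1 summed to 4 reads in each library.

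The classes also differ in gene structure, which the choice of genes did not use. Fibrillar collagen genes are known for exons built from a 54-base unit, 6 repeats of the 9 bases that encode glycine and 2 further residues. Among the 627 inner coding exons of the 11 fibrillar genes, 83.9% had a length divisible by 9 and 48.6% were exactly 54 bases long. For the 6 basement membrane genes these shares were 47.2% and 4.23%, for the 6 microfibrillar genes 54.4% and 8.25%, for the 4 transmembrane genes 70.7% and 9.33% and for the 9 FACIT genes 55.1% and 26.3%. Over all 17018 protein-coding genes they were 14.3% and 0.732%.

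Genes that handle collagen were then described by role, beside the 2.71% higher and 5.6% lower of all genes. Of 19 genes for folding and modification of procollagen, 16 were tested, 2 were lower and 0 higher, and the median ratio was -0.55 with 14 below 0. P3h3, a prolyl 3-hydroxylase family member that acts in lysine hydroxylation of collagen, had 80 and 14 reads, a ratio of -2.21 [-3.22, -1.46]. Colgalt2, which adds galactose to hydroxylysine, had 435 and 113 reads and -1.71 [-2.03, -1.41]. The most read genes were P4hb, the β subunit of prolyl 4-hydroxylase, with 33718 and 23724 reads and -0.28 [-0.30, -0.25], and Serpinh1, the collagen chaperone HSP47, with 9551 and 6978 reads and -0.22 [-0.27, -0.18]. None of the 9 export genes passed the threshold, their median was 0.11, and the most read were Sec31a, a COPII coat subunit, at 0.46 and Mia2, a cargo receptor that loads collagen, at 0.11.

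Among 10 genes for cleavage of the propeptides 5 were tested, with a median ratio of 1.00, and 1 was higher, the protease gene Mep1a, with 14 and 56 reads and a ratio of 2.15 [1.37, 3.19]. Bmp1, the main C-proteinase, had 3669 and 3599 reads and 0.20, and Pcolce2, its enhancer, 535 and 919 reads and 1.01 [0.85, 1.17]. Of 7 cross-linking genes, Lox, Loxl1 and Pxdn, the last of which cross-links collagen IV, had no reads. The 4 tested all lay below 0, with a median of -1.09 and none past the threshold. Tgm2, transglutaminase 2, had 22696 and 6912 reads and a ratio of -1.49 [-1.52, -1.45], which passed the threshold at -1.59 under scaling to the total count and at -1.52 under upper quartiles, and Loxl4 had 2212 and 1002 reads and -0.91.

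Of 9 partners of fibrils 3 were tested, with a median ratio of -1.30, and Bgn, Lum and Ogn, small proteoglycans, had no reads. Sparc, a collagen-binding matricellular protein, was lower with 6357 and 1712 reads and a ratio of -1.66 [-1.74, -1.59], and Fn1, fibronectin, had 29310 and 10127 reads and -1.30 [-1.34, -1.27]. Of 10 receptors 6 were tested, with a median ratio of 0.48, and 1 was lower: Itga1, the integrin α1 chain that binds collagen IV, with 1062 and 230 reads and -1.97 [-2.19, -1.77]. Its partner Itgb1 had 18545 and 23966 reads and 0.60, and Ddr1, a collagen-activated tyrosine kinase, 7691 and 5079 reads and -0.37. Only 2 of the 6 receptors lay below 0. The integrin gene Itga2 went the other way from Itga1, with 1403 and 3154 reads and 1.40 [1.31, 1.49], short of the threshold. Of 7 proteases that cleave collagen 2 were tested: Mmp13, collagenase 3, rose from 135 to 981 reads with a ratio of 3.08 [2.83, 3.36], and Mmp14, a membrane-bound collagenase, had 7160 and 5672 reads and -0.11.

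**Figure D5:**
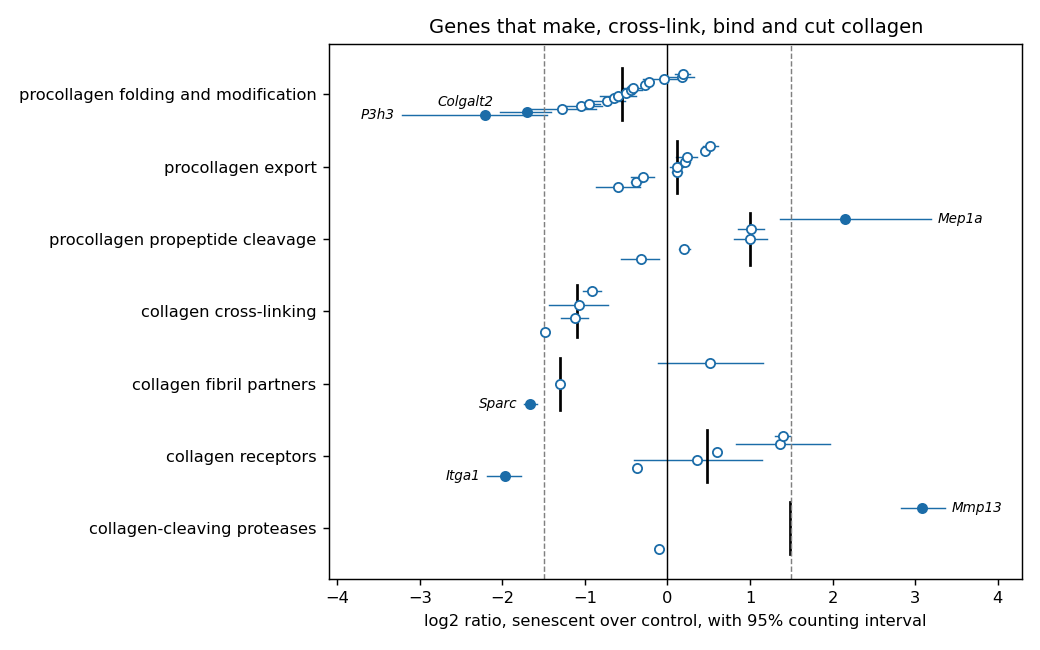
log2 ratio of senescent over control (horizontal axis) for tested genes of 7 roles in collagen handling, with lines for the 95% counting interval, dashed lines at the threshold of 1.5 and black bars for each role's median. Filled, named points passed the threshold, with Mmp13 highest at 3.08 and P3h3 lowest at -2.21, and all 4 cross-linking genes lie below 0.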

How the data were processed

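The authors deposited un-normalized counts of reads per gene, listed by Ensembl identifier, for 1 pooled library per condition. The submitters' processing notes name CASAVA, STAR, DESeq2, edgeR and mm10. The counting tool, annotation and use of strand are not given in the sources used here, and how overlapping genes share reads is uncertain. Columns were matched by the initial of each sample's title. Symbols, positions and merged exon lengths over all isoforms came from GENCODE M21 (GRCm38), and 34490 of 35275 identifiers (97.8%) had a symbol.

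Counts were scaled by TMM (edgeR 4.0.16, R 4.3.3) with factors of 1.04 and 0.964. DESeq2 1.42.0 supplied size factors for an alternative. A prior count of 1, in proportion to library size, was added before the log2 ratio. Intervals (95%, Clopper-Pearson) were set on the part of a gene's reads that came from senescent cells, without the prior count. Python 3.11.15, numpy 2.4.6, pandas 2.3.3, scipy 1.17.1 and matplotlib 3.10.9 were used, and the procedure was tested on simulated data. Those data held counting error alone and changes far past the threshold, so they do not speak to calls near it or to the spread between cultures. With 1 library per condition no p-value was computed. The threshold of 1.5 follows the study's methods.

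The genes and lists were chosen with earlier results of these data known. Named were all collagen genes, in each list of collagen handling those past the threshold and the 2 most read, and in each marker list the most read. Lists were drawn up from general knowledge, and of the collagen genes listed by class 1, Col21a1, is not in the annotation. Marker genes at 0 or past the threshold, and Tagln, Itga2, Lox, Loxl1, Pxdn, Bgn, Lum and Ogn, fall outside this rule and were picked after their values were seen. Alternatives were other scalings (total count, DESeq2, upper quartile), filters of 1 or 100 reads, prior counts of 0.125 or 5, thresholds of 1 or 2, and wider intervals that assume a coefficient of variation of 0.1 or 0.4.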

Additional observations from a re-analysis of the deposited data

How the results depend on the processing

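No paired analysis was possible because each condition has 1 library and the labels give no replicate numbers, and for the same reason no library could be left out. Of 213 alternative values for the 20 tested collagen genes, 203 kept their direction and side of the threshold, 7 lost the call, 3 gained it and 0 changed sign. Only another scaling could have changed a sign. Filters, prior counts, thresholds and assumed coefficients of variation cannot do so for a given gene, so most of these values could not have differed in direction. Over these settings the higher genes numbered 2 to 6 and the lower genes 2 to 5. With a threshold of 2, 2 genes were higher (Col6a3 and Col20a1), and with at least 100 reads 2 were lower (Col12a1 and Col16a1). Col11a2 lost its call at 1.44 under total-count scaling, and Col6a2 at -1.38 with a prior count of 5. Both lost it with an assumed coefficient of variation of 0.4. At that value the intervals of Col4a1, Col4a2, Col4a5, Col6a1, Col7a1, Col15a1, Col18a1 and Col27a1, none of them called, also came to hold 0. Those of Col4a1 and Col4a5 already did at 0.1. The intervals of Col1a1, Col4a6, Col6a3, Col12a1, Col16a1 and Col20a1 left out 0 at both values. The basement membrane median of 0.78 was 0.67 under total-count scaling, which shifted the median of all genes by -0.11, and 0.74 under upper-quartile scaling. The microfibrillar median of -1.35 reversed to 1.06 with at least 1 read, because Col6a4 and Col6a5, with 1 and 6 reads, then entered. With the same filter the fibrillar median of 0.20 was -0.86 and the transmembrane median of -0.28 was 0.11. No transmembrane gene reached 100 reads, so that median had no value there. Total-count scaling gave 332 genes higher and 905 lower of all tested, against 390 and 805. Depth limited the 13 collagen genes without reads and the 7 tested genes under 100 reads, whose intervals were widest.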
